A study of Mus musculus with 2 samples.

Results

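Tenocytes without *Col22a1* were examined among muscle-resident cells labelled through *Hic1*. A cell was counted as a member when it had at least 1500 unique molecular identifiers (UMIs, each standing for 1 captured transcript), at most 10% mitochondrial UMIs, at least 5000 UMIs of *Thbs4*, *Fmod*, *Kera* and *Chodl* together per 1000000 of its UMIs (CPM), and 0 UMIs of *Col22a1*, which encodes a collagen of the myotendinous junction. The rule found 484 members among 14654 kept cells. These were 159 of 6087 kept cells in the E10-P56 library, or 2.61% (exact 95% binomial interval 2.23 to 3.04), and 325 of 8567 in the adult pulse library, or 3.79% (3.40 to 4.22). Without 2 sub-clusters of members rich in fibroblast genes, described below, the shares were 2.09% and 2.30%, so the gap between the libraries lay mostly in those cells. Members were thus chosen by the counts of 5 genes, so the levels of these genes are given as a description, and the same holds for every difference between members and other cells.

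Both libraries came from C57BL/6J mice of the genotype Hic1CreERT2/CreERT2;Rosa26LSLtdTomato/tdTomato, in which tamoxifen (TAM) activates a Cre recombinase made from both *Hic1* alleles and thereby switches on tdTomato. For E10-P56, dams received 7.5 mg of TAM by gavage at embryonic day 10, and the muscle of the offspring was taken at postnatal day 56. For the adult pulse, animals aged 8 weeks were injected with 2.5 mg of TAM on each of 5 days. The labels give postnatal day 56 as the collection for this group too, whereas the study's text gives a later day, so the age of these cells is not certain. Tibialis anterior muscles were pooled and digested, and tdTomato-positive cells were sorted, so tenocytes that neither made the *Hic1*-driven Cre at the time of TAM nor descended from a cell that did could not be seen. With 1 library for each labelling time, labelling time, animals, age, digestion and Cell Ranger version cannot be told apart, no test was made, and every interval covers counting error only.

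Tenocytes are the fibroblasts of tendon. They lay down parallel fibrils of type I collagen and coat them with small leucine-rich proteoglycans and thrombospondins, which set fibril width and spacing. The transcription factors scleraxis (*Scx*) and Mohawk (*Mkx*) act in their formation, and tenomodulin (*Tnmd*) is a membrane glycoprotein of the mature cell.

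Members of E10-P56 had a median of 4496 UMIs and 1952 genes, against 7814 UMIs in the other kept cells of that library. Members of the adult pulse had a median of 6021 UMIs and 2058 genes, against 7378 UMIs in the other kept cells. Their mitochondrial share had a median of 3.46% and 3.62% in the same order. The libraries shared 15 of their cell barcodes, 11 of them among kept cells and 0 among members. The median summed level of the 4 genes was 17401 CPM in E10-P56 members and 15916 CPM in adult pulse members, with a lowest value of 5114 and 5002 and a highest of 46179 and 70060. Just inside the limit, from 5000 to 6000 CPM, lay 13 and 31 cells, and just outside it, from 4000 to 5000, lay 16 and 49 cells with no *Col22a1* UMI. *Tnmd*, which the rule did not use, stood at 649 CPM over the 13 cells inside and 263 over the 16 outside in E10-P56. In the adult pulse it stood at 308 inside and 367 outside.

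A count of 0 for *Col22a1* was limited by depth. At the median depth of a member, 3 UMIs correspond to 667 CPM in E10-P56, and to 498 CPM with the deeper adult pulse members. Cells that reached the same 4-gene level with at least 1 *Col22a1* UMI, called *Col22a1* tenocytes here, numbered 77 and 313 and carried 801 and 935 CPM of it. Exactly 1 *Col22a1* UMI was found in 21 and 50 of them. At this depth a shallow *Col22a1* tenocyte can be counted as a member.

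The tenocyte label was checked against markers. From here on, levels are UMIs summed over the cells of a population, in CPM. *Tnmd* stood at 1706 CPM (exact 95% Poisson interval 1625 to 1790) in E10-P56 members and 1805 (1750 to 1861) in adult pulse members, against 25.04 and 29.1 CPM in the other kept cells. Other kept cells are those below the 4-gene level, so they include neither members nor *Col22a1* tenocytes. Of these 5851 and 7929 cells, 4071 and 6621 had a *Pdgfra* UMI, and 585 and 411 were *Rgs5*-high without one. Ratios to other kept cells depend on this mix, which differed between the libraries. The *Tnmd* ratios were 68.1-fold and 62.0-fold. Of the 7 tenocyte markers listed, 4 are the genes of the level and were fixed by the rule, and *Tnmd*, *Scx* and *Mkx*, which it did not use, were past 2-fold in both libraries. After every cell had been thinned at random to 1500 UMIs, 81.1% (74.2 to 86.9) and 65.8% (60.4 to 71.0) of members had a *Tnmd* UMI. Among *Rgs5*-high, *Pdgfra*-free cells, which are of pericyte type and should lack the gene, the share was 0.684% and 0.730%, at a median of 3826 and 3311 UMIs before thinning. Mohawk was counted at 69.4 CPM (53.8 to 88.1) and 58.9 (49.3 to 69.7) in members and at 1.05 and 0.997 in the other kept cells.

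**Figure D1:**
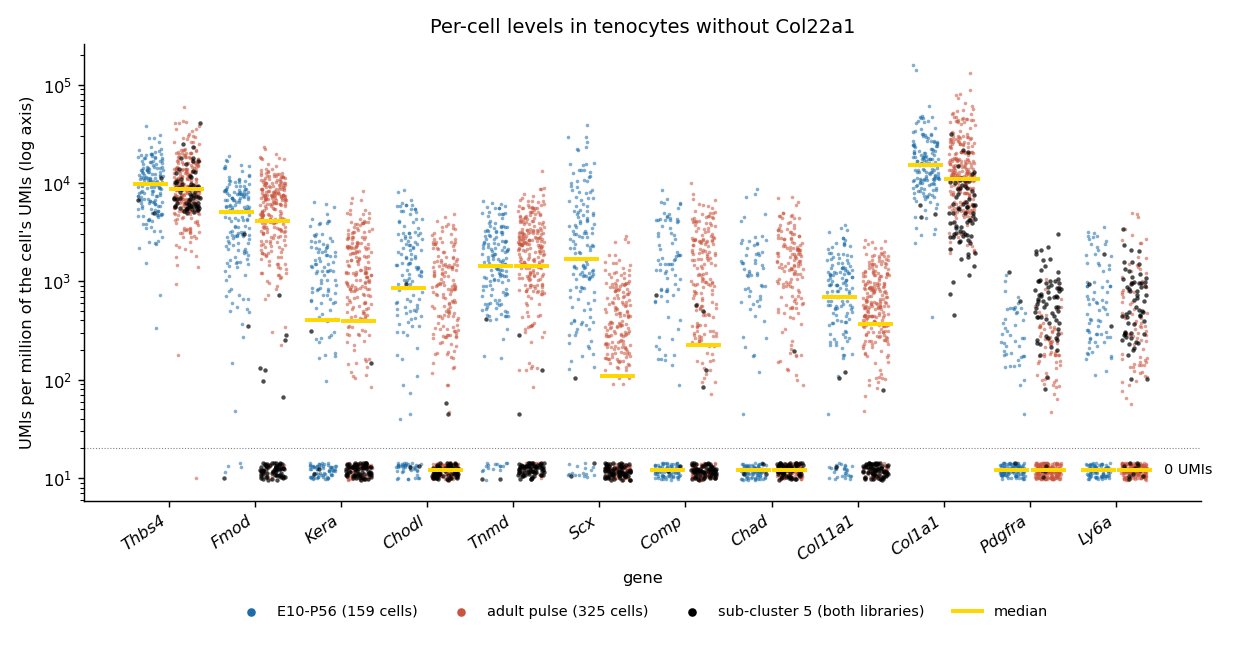
Each point is 1 member, with its UMIs of a gene per 1000000 of its own UMIs (CPM) on a log axis. E10-P56 (159 cells) is blue and the adult pulse (325 cells) red, cells without a UMI are drawn below the dotted line, gold bars are medians and black points are sub-cluster 5. *Scx* lies higher in E10-P56, and the black cells have *Thbs4* and *Col1a1* but mostly 0 UMIs of *Fmod*, *Kera*, *Tnmd* and *Scx*.

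The members were not uniform. *Thbs4*, which encodes thrombospondin-4, was present in every E10-P56 member, at a median of 9861 CPM of the cell's own UMIs and a range from 332 to 37636. In the adult pulse its median was 8678 and its highest value 59194, and 1 cell had none. Fibromodulin (*Fmod*), a proteoglycan that binds collagen fibrils, had a median of 5051 in E10-P56 with 5 cells at 0, and of 4100 in the adult pulse with 73 cells at 0. *Thbs4* was the only gene of the 4 with a UMI in 4 E10-P56 members (2.52%) and in 68 adult pulse members (20.9%). These cells, mostly of the adult pulse, passed the rule on *Thbs4* by itself.

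Clustering the 484 members by themselves gave 5 sub-clusters. The genes that lead them were used to form them, so their levels describe the cells and are not tested. Sub-cluster 5 held 74 cells, of which 71 came from the adult pulse and 3 from E10-P56, and went against the tenocyte label. In its 74 cells *Thbs4* reached 9329 CPM, but *Fmod* stood at 68.8, *Kera* at 6.55, *Tnmd* at 11.5, *Scx* at 1.64 and *Chad* at 1.64 CPM. Its leading genes were *Hmcn2*, *Smoc2*, *Ccl11*, *Hsd11b1* and *Eln*, and 62 of its cells had *Thbs4* alone of the 4 genes. A list of 10 fibroblast markers summed to 25081 CPM there, against 5260 in sub-cluster 1, 4367 in sub-cluster 2, 7085 in sub-cluster 3 and 18536 in sub-cluster 4. These cells are called the fibroblast-led sub-cluster below. Where their removal took a gene of the lists across 2-fold, this is stated below. The 410 members outside it were 156 E10-P56 cells and 254 adult pulse cells.

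Sub-cluster 4, with 29 E10-P56 cells and 57 adult pulse cells, carried both sets of genes. *Tnmd* stood at 1105 CPM and *Fmod* at 2324 CPM beside *Ly6a* (Sca-1) at 1360 CPM, and its leading genes included *Efemp1*, *Cd248*, *Ly6c1*, *C3* and *Pi16*. Its cells were also the deepest, with a median of 9521.5 UMIs, and 32.6% of them were among the 5% of kept cells with the highest doublet scores. The part of doublets in these values was not tested. In sub-cluster 5 the same share was 1.35%. Sub-clusters 1 to 3 held the other members, which were 127 E10-P56 cells and 197 adult pulse cells, with the fibroblast markers at 4227 and 6388 CPM. Fibroblast genes took part in forming the sub-clusters, so they are lower in sub-clusters 1 to 3 by construction.

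*Tnmd* was at 2554, 2197 and 3442 CPM in sub-clusters 1, 2 and 3. Sub-cluster 3, with 20 and 73 cells, was led by *Wif1*, *Angptl7*, *Col11a2*, *Crtac1*, *Chad* and *Comp*, and had *Col1a1* at 35044 CPM (34553 to 35539), against 13529 in sub-cluster 1 and 15746 in sub-cluster 2. Chondroadherin (*Chad*), a leucine-rich protein that binds collagen, reached 2284 CPM there, against 659 and 232. Sub-cluster 2, with 81 and 14 cells, was led by *Tnfrsf21*, *Vipr2*, *Chodl* and *Mstn*, and had chondrolectin (*Chodl*), a membrane lectin, at 2509 CPM against 122 in sub-cluster 3. *Wif1*, a secreted inhibitor of Wnt ligands, was at 1213 CPM in sub-cluster 3 and at 2.35 CPM in sub-cluster 2. Sub-cluster 1, with 26 and 110 cells, was led by *Ptn* and *Edil3*. The sub-clusters drew unequally on the libraries, and the labelling time cannot be told apart from the library in this.

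**Figure D2:**
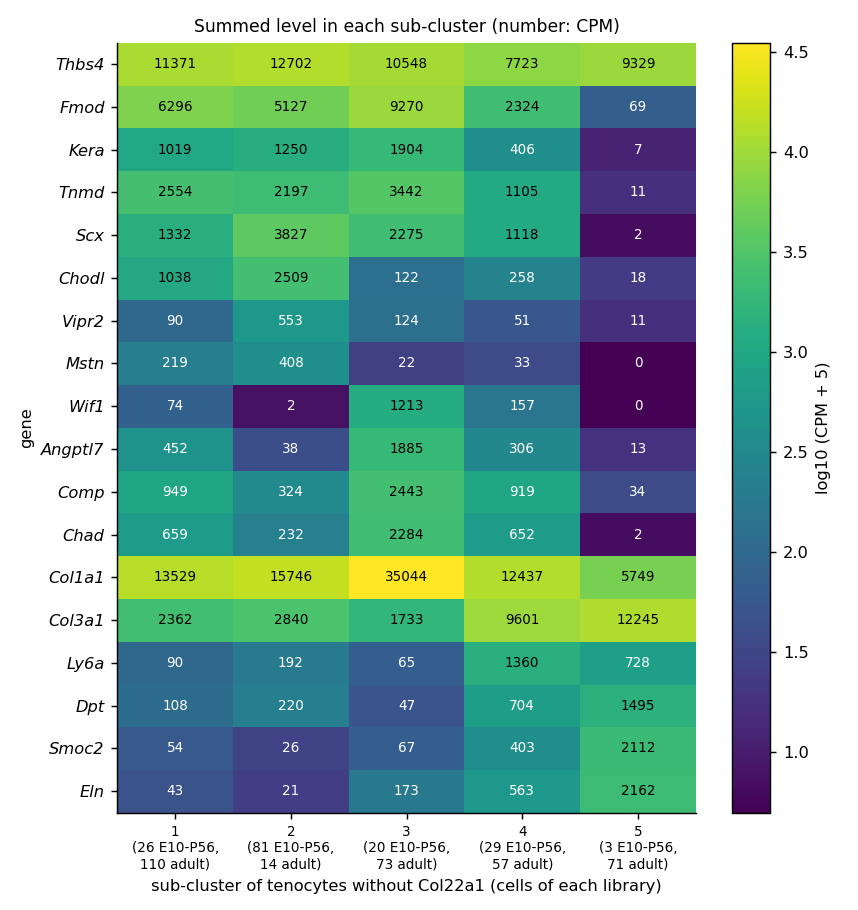
Summed level of 18 genes in the 5 sub-clusters of the 484 members, coloured by log10 of CPM plus 5 and printed as CPM, with the number of cells from each library below each column. *Chodl*, *Vipr2* and *Mstn* are highest in sub-cluster 2, *Wif1*, *Angptl7*, *Comp*, *Chad* and *Col1a1* in sub-cluster 3, and sub-cluster 5 keeps *Thbs4* beside *Smoc2*, *Dpt* and *Eln*.

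Against the other kept cells, the members were set apart by tendon matrix genes. Of 5635 genes with a mean of at least 20 CPM over members and other kept cells in each library, 144 (2.56%) were at least 2-fold higher in members in both libraries and 185 (3.28%) at least 2-fold lower. In E10-P56 by itself 4.38% were higher and 4.99% lower, and in the adult pulse by itself 3.27% and 4.56%. Ratios were formed after 5 CPM had been added to both levels. The 15 genes with the highest ratio, ranked by the library in which it was nearer 1, were *Fmod*, *Kera*, *Cilp2*, *Thbs4*, *Tnmd*, *Chodl*, *Chad*, *Col11a1*, *Scx*, *Comp*, *Ptx4*, *Col11a2*, *C1ql3*, *Angptl7* and *Mstn*. Of the genes that the rule did not use, *Cilp2*, named for the cartilage intermediate layer, had 930.1 CPM (870.3 to 993) in E10-P56 members and 581 (550.2 to 613) in adult pulse members, against 4.57 and 4.04 in other kept cells. Cartilage oligomeric matrix protein (*Comp*), a thrombospondin that binds fibrillar collagen, was at 1039 (976 to 1105) and 901 (862 to 941), against 41.2 and 31.4. *Chad* was at 575 and 832 CPM, against 11.1 and 9.92. The secreted factor *Angptl7* was at 479 and 537, against 11.4 and 27.6. Myostatin (*Mstn*), an inhibitor of muscle growth best known from muscle fibres, was at 197 (169.8 to 227) and 83.0 (71.6 to 95.7), against 0.704 and 0.554. It was concentrated in few cells, since 2 members of E10-P56 held 127 of its 190.0 UMIs there and 2 of the adult pulse 126 of 189, and without those 2 cells in each library it stood at 66.03 and 27.9 CPM. All 15 were at least 2-fold higher without the fibroblast-led sub-cluster as well.

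The 10 genes with the lowest ratio in the same ranking were *C4b*, *Ccl11*, *Cd248*, *Ly6c1*, *C3*, *Ecm1*, *Ly6a*, *Adamts5*, *Ugdh* and *Cd34*. Complement *C3* was at 389 CPM in E10-P56 members and 285 in adult pulse members, against 1575 and 1243 in other kept cells. *Ly6a* was at 751 and 499, against 2903 and 1560. *Adamts5*, a protease of large proteoglycans, was at 216 and 261, against 729 and 813. *Ly6a* was at 0 in 82 of the 159 and 184 of the 325 members. Sub-cluster 4 held 546 of its 725 UMIs in E10-P56 members, and sub-clusters 4 and 5 held 685 and 418 of its 1136 in adult pulse members.

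**Figure D3:**
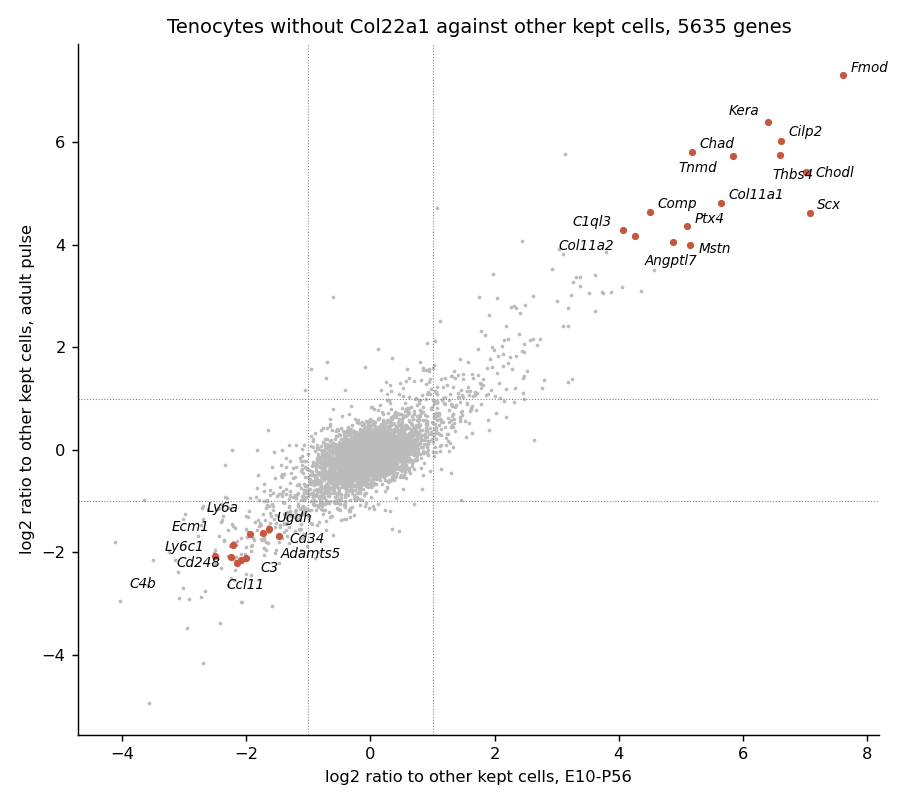
Log2 ratio of the level in members to the level in other kept cells, with 5 CPM added, for 5635 genes, E10-P56 on the x axis and the adult pulse on the y axis. Red points are the 15 genes highest and the 10 lowest in members, dotted lines mark 2-fold, and the red points lie past 2-fold on the same side in both libraries.

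Collagen chains differed from one another in their ratios to the other kept cells. Of 22 listed, 19 could be compared, of which 6 were higher (*Col11a1*, *Col11a2*, *Col12a1*, *Col16a1*, *Col8a1*, *Col8a2*) and 1 lower (*Col5a3*), with median log2 ratios of 0.03 and -0.02 in the 2 libraries. Over all 5635 genes the median was -0.02 and -0.09. *Col11a1*, whose product helps to start fibrils, was at 695 CPM (643 to 750) and 459 (432 to 488) in members, against 8.96 and 11.4. *Col12a1*, a chain that sits on the fibril surface, was at 713 and 522, against 78.5 and 32.5. *Col1a1* was at 16755 CPM (16498 to 17015) in E10-P56 members and 15305 (15144 to 15466) in adult pulse members, against 11165 and 5149, so it was past 2-fold only in the second library. *Col3a1* went the other way, at 7481 and 5657 in members and 15135 and 7346 in other kept cells. Without the fibroblast-led sub-cluster *Col3a1* in adult pulse members was 3318, and with it lower in both libraries the counts were 6 higher and 2 lower.

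The small leucine-rich proteins coat collagen fibrils. Of 14 small leucine-rich proteins 12 could be compared, and 6 were higher (*Aspn*, *Fmod*, *Prelp*, *Kera*, *Chad*, *Ecm2*) and 0 lower, with median log2 ratios of 1.39 and 1.15, but *Fmod* and *Kera* among them were used by the rule. With the fibroblast-led sub-cluster left out, 8 were higher, *Ogn* and *Omd* being added. Asporin (*Aspn*), which binds collagen and calcium, was at 1862 and 938 CPM, against 529.6 and 388. Decorin (*Dcn*), by contrast, was at 9833 and 18001 CPM in members and 9240 and 18036 in other kept cells. Of 27 tendon glycoproteins 25 could be compared, and 12 were higher (*Comp*, *Thbs1*, *Thbs4*, *Tnc*, *Cilp*, *Cilp2*, *Matn4*, *Ctgf*, *Tgfbi*, *Angptl7*, *Mfap4*, *Ltbp3*) and 0 lower. *Cilp* was at 1595 and 2827, against 157 and 269.8, and *Mfap4*, a microfibril-associated protein, at 849 and 1052, against 56.6 and 67.9. *Thbs4* in this list was used by the rule. Leaving out the fibroblast-led sub-cluster gave 12 higher, *Thbs2* in place of *Tgfbi*, and 2 lower (*Mfap5*, *Fbn1*). Tenascin-C (*Tnc*) was alike in members of both libraries, at 347 (311 to 386) and 404 (378 to 431), but was at 163 in other kept cells of E10-P56 and 10.5 in those of the adult pulse.

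Of 29 genes that modify and cross-link collagen, 24 could be compared, 1 was higher (*Lox*) and 1 lower (*Pcolce2*), and *P4ha2* and *Bmp1* were also lower without the fibroblast-led sub-cluster. Lysyl oxidase (*Lox*), which starts the cross-links, was at 505 and 371 CPM, against 229.7 and 61.0. *P3h2*, a prolyl 3-hydroxylase, did not reach the level needed for the comparison and was counted at 62.1 (47.4 to 80.0) and 33.4 (26.3 to 41.8), against 4.34 and 1.96.

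Of 28 genes in the list of tendon transcription factors, 20 could be compared, 4 were higher (*Scx*, *Mkx*, *Meox1*, *Zfp185*) and 1 lower (*Osr1*, a factor of muscle connective tissue). A place in the list does not show that a gene, such as *Zfp185*, acts as a transcription factor. *Meox2* was also higher and *Klf4* also lower once the fibroblast-led sub-cluster was left out. *Scx* (ENSMUSG00000034161, chromosome 15, 76457452 to 76459458 of GRCm38, plus strand) had 4372 CPM (4241 to 4506) in E10-P56 members and 298 (276 to 322) in adult pulse members, against 27.4 and 7.30 in other kept cells. After thinning, 76.7% (69.4 to 83.1) and 27.4% (22.6 to 32.6) of members had a *Scx* UMI, and 2.56% and 0.487% of the pericyte-type cells. *Scx* lies inside *Bop1* (from 76452989 to 76477277) on the opposite strand, and *Bop1* was at 45.6 and 15.8 CPM in members. *Meox1*, a homeobox gene of the somite, was at 69.4 and 139, against 24.8 and 48.3.

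Of the 46 listed or named genes that were higher in members than in other kept cells, 43 were higher in sub-clusters 1 to 3 as well, where *Col8a1*, *Aspn* and *Lox* were not. Of the 31 that were lower 30 were lower there too, and 25 more were. *Acta2* was the exception, and all 10 fibroblast markers were lower there. Sub-clusters 1 to 3 are part of the same members, the named genes were chosen by their ratios in these members, and the lists hold genes of the rule. These counts thus describe which cells carry the calls and are no check of them. With the 2 members of each library that held most UMIs of a gene left out, *Ecm2*, *Tnc*, *Lox* and *Meox1* were below 2-fold in 1 library, *Tnc* for example at 312 and 394 CPM, and the other 42 were still higher.

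Scleraxis is a basic helix-loop-helix factor, and such factors recognise the E-box letters CANNTG. To show what lies before genes of the tendon programme, the 250 bases upstream of the RefSeq start (GRCm38.p6, plus strand of each gene) are given for 3 of the leading genes, with every CANNTG in capitals. *Tnmd* holds 0 of them, *Chodl* 4 and *Mstn* 4.
Tnmd, chrX:133850758-133851007: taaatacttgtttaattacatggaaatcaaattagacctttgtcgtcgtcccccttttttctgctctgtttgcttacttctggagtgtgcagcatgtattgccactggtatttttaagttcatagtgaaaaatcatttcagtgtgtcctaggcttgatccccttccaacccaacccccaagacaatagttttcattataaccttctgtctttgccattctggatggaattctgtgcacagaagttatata
Chodl, chr16:78930698-78930947: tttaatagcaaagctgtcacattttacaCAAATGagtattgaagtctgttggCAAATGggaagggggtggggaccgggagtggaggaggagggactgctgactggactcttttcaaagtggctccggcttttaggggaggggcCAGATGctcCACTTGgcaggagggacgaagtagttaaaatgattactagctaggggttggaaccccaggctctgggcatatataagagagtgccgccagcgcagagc
Mstn, chr1:53061390-53061639: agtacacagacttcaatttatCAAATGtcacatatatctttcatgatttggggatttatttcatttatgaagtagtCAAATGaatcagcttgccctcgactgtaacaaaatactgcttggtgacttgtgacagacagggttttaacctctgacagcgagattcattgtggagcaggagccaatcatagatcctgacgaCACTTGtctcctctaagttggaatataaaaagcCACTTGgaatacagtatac
CANNTG reads the same on both strands. Of the 15 leading genes, 12 were matched in the RefSeq table, 9 of the 12 hold at least 1 CANNTG in this window and 3 hold at least 3 (*Chodl*, *Mstn*, *Angptl7*). Of all 32851 promoters listed there, 66.2% hold at least 1 and 12.2% at least 3. A match describes the letters and says nothing of binding.

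Signalling genes of tendon differed in a few members of each list. Of 34 genes of the TGF-beta, BMP and GDF families 25 could be compared, and 3 were higher (*Tgfb3*, *Id2*, *Mstn*) and 2 lower (*Gdf10*, *Fst*). The ligand *Tgfb3* was at 115 (94.6 to 138) and 95.3 (83.1 to 109), against 41.5 and 32.8. Follistatin (*Fst*), which binds activins and myostatin, was at 55.9 and 37.3, against 249 and 327, with 45 of its 54 UMIs in E10-P56 members in 2 cells. Of 34 FGF, IGF, Wnt and other signalling genes 24 could be compared, 2 were higher (*Wif1*, *Dkk3*) and 3 lower (*Sfrp1*, *Cxcl12*, *Vegfa*). Of 21 genes of the mechanical response 16 could be compared, 5 were higher and 0 lower. These were the stretch-gated channels *Piezo1* and *Piezo2*, the co-activator *Wwtr1* (TAZ) and its known targets *Cyr61* and *Ctgf*. *Piezo2* was at 68.4 (52.9 to 87.0) and 69.8 (59.4 to 81.6), against 10.3 and 5.84, and *Ctgf* at 743 and 970.3, against 136 and 148. Of 20 proteases and inhibitors 14 could be compared, 0 were higher and 2 lower (*Mmp3*, *Adamts5*). Of 14 sheath and progenitor genes 12 could be compared, 0 were higher and 5 lower (*Ly6a*, *Cd34*, *Cd248*, *Has1*, *Has2*), to which *Thy1* was added without the fibroblast-led sub-cluster. Lubricin (*Prg4*), a product of gliding surfaces, was at 1457 and 1338 CPM in members against 775 and 310.3, past 2-fold in the adult pulse. Of 22 immediate early and heat shock genes, and of 6 comparable ones among 24 *Hox* and limb identity genes, 0 were past 2-fold the same way in both libraries.

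Markers of other cell types were counted in members and in the other kept cells. Of 10 fibroblast markers, 0 were higher than in other kept cells and 6 lower, but none was at 0. Their summed level was 9352 CPM in E10-P56 members and 14400.3 in adult pulse members, against 22876 and 35876 in other kept cells, with *Gsn* the most abundant in members at 6465 and 10554. The sums were 9064 and 10628 without the fibroblast-led sub-cluster, and 7 markers were lower, with *Dpt* and *Smoc2* added and *Dpp4* below 2-fold. The 6 pericyte markers summed to 119 and 27.2 CPM, against 1067 and 580.03, with *Rgs5* the most abundant in E10-P56 at 58.0. The 6 smooth muscle markers summed to 353 and 113, against 1828 and 279, with *Acta2* at 153 and 40.8. *Acta2* was past 2-fold lower in both libraries, but not without the fibroblast-led sub-cluster. Of the Schwann markers *Pmp22* was at 383 and 438 in members and 398 and 441 in other kept cells, and *Sox10* was at 1.04 and at 0. The 6 immune markers were all at 0 in E10-P56 and summed to 3.95 CPM in the adult pulse, against 1.88 and 4.35, with *Ptprc* and *Cd3e* at 0. The 6 endothelial markers summed to 3.11 and 14.5, against 14.5 and 30.8, with *Cldn5* and *Emcn* at 0 in both libraries. The 8 myogenic markers summed to 33.1 and 49.6, against 11.9 and 54.7, so their sum was higher in members of E10-P56, with *Myod1*, *Myf5* and *Pax7* at 0 in both. The 9 cartilage and bone markers summed to 83.9 and 67.6, against 55.2 and 75.8, with *Ibsp* and *Sp7* at 0. The 6 perineurial markers summed to 22.8 and 21.1, against 135 and 42.6, and the 5 cycling markers to 6.21 and 1.32, against 73.8 and 17.6.

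**Figure D4:**
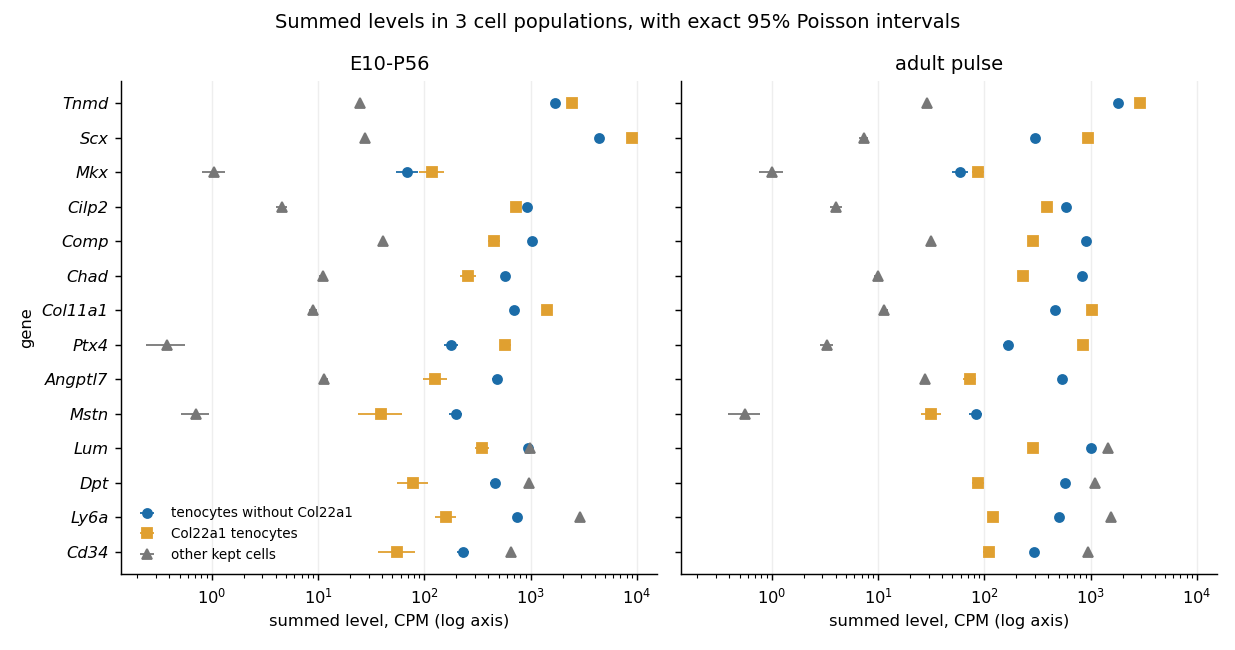
Summed level in CPM on a log axis for 14 genes, with exact 95% Poisson intervals, in members (blue circles), *Col22a1* tenocytes (orange squares) and other kept cells (grey triangles), in E10-P56 on the left and the adult pulse on the right. *Comp*, *Chad*, *Angptl7*, *Mstn*, *Lum*, *Dpt*, *Ly6a* and *Cd34* are higher in members than in *Col22a1* tenocytes in both libraries, and *Tnmd*, *Scx*, *Mkx*, *Col11a1* and *Ptx4* lower. Without 2 cells of each library *Mstn* was below 2-fold in E10-P56 and lower in adult pulse members.

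The nearest population was the *Col22a1* tenocytes. Of 2331 genes with at least 100 UMIs over both populations in each library, 65 (2.79%) were at least 2-fold higher in members in both libraries and 35 (1.5%) at least 2-fold lower. The 10 genes with the highest ratio were *Hmcn2*, *Col14a1*, *Eln*, *Ccl7*, *Smoc2*, *Col15a1*, *Sod3*, *Gpx3*, *Dpt* and *Igfbp5*, of which *Smoc2*, *Col15a1* and *Dpt* are in the list of fibroblast markers. Collagen XIV (*Col14a1*), a fibril-associated chain, was at 231 CPM (202 to 263) and 274 (253 to 296) in members and 26.8 and 33.4 in *Col22a1* tenocytes. The secreted peroxidase *Gpx3* was at 896 and 851, against 70.2 and 141. *Ccl7*, a chemokine, had 62 of its 98 UMIs in E10-P56 members and 113 of its 166 in adult pulse members in 2 cells of each library. Of 9 comparable fibroblast markers 8 were higher and 0 lower. Without the fibroblast-led sub-cluster *Hmcn2* in the adult pulse was 82.9 in place of 439 CPM and *Smoc2* 182 in place of 691, against 32.3 and 99.1, so *Smoc2* was then below 2-fold, whereas *Col14a1* was 227 and *Gpx3* 919. Of 20 comparable collagens 5 were higher and 2 lower, of 24 glycoproteins 8 and 1, of 10 small leucine-rich proteins 2 and 0, of 8 sheath and progenitor genes 6 and 0, and of 21 genes of collagen processing 1 (*Adamts2*) and 0. Without the fibroblast-led sub-cluster *Pdgfra*, a fibroblast receptor, was at 190.1 in E10-P56 and at 89.4 in place of 239.8 in the adult pulse, against 39.2 and 50.9, which is below 2-fold in the adult pulse, whereas *Dpt* was at 445 and 247, against 78.4 and 87.6, which is past it. Sub-cluster 4 held 328 of the *Dpt* UMIs of adult pulse members, and in sub-clusters 1 to 3 *Dpt* was at 181 and 80.5. *Col3a1*, *Col8a1*, *Lum* and *Tppp3* were also below 2-fold then, so that 6 fibroblast markers, 3 collagens, 1 small leucine-rich protein and 4 sheath and progenitor genes were higher.

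The genes higher in members than in *Col22a1* tenocytes rested largely on sub-clusters 4 and 5. Only members were sub-clustered, so the *Col22a1* tenocytes kept any cells of this kind. Fibroblast genes are lower in sub-clusters 1 to 3 by construction, so the loss of their calls below was partly set by the choice of cells. In sub-clusters 1 to 3, 18 of 1728 genes were higher and 13 lower in both libraries. Of 35 listed or named genes that were higher in all members 12 were higher there, and of 15 lower ones 10 were lower. None of the 9 fibroblast markers was past 2-fold in both libraries there, of 20 collagens 2 were higher and 1 lower, of 24 glycoproteins 4 and 2, and of 8 sheath and progenitor genes 1 and 0. *Hmcn2*, *Eln*, *Ccl7*, *Smoc2*, *Col15a1* and *Dpt* were not past 2-fold in both libraries there, *Eln* for example at 16.4 and 114 CPM and *Smoc2* at 29.6 and 62.6. *Col14a1* was at 98.7 and 129, *Sod3* at 129.9 and 61.7, *Gpx3* at 720.4 and 577 and *Igfbp5* at 582 and 602, and these were past it.

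Summed over all members, several tendon products also stood higher than in *Col22a1* tenocytes. *Comp* was at 1039 and 901 CPM, against 454 (396 to 518) and 284 (264 to 305). *Chad* was at 575 and 832, against 260.1 and 231. *Angptl7* was at 479 and 537, against 126 and 72.8. In sub-clusters 1 to 3 these were at 1076 and 1384, 742 and 1259, and 689 and 877 in the same order, all past 2-fold. They were uneven over these sub-clusters. In E10-P56 *Comp*, *Chad* and *Angptl7* were at 1452, 939 and 550 in sub-cluster 1. They were at 3641, 2523 and 3748 in sub-cluster 3, which they led. Sub-cluster 2, which held 50.9% of E10-P56 members, had 312, 240 and 41.4, below the *Col22a1* tenocytes. *Comp* was at 0 in 80 of the 159 E10-P56 members and *Chad* in 100. In E10-P56, 209 of the 462 *Angptl7* UMIs were in 2 members, and it was at 267 CPM without them, still past 2-fold. *Chad* was at 490.3 and 778 without the 2 members of each library that held most of its UMIs, which is below 2-fold in E10-P56, and the same held for *Ltbp1*, *Adamts2*, *Tppp3* and *Cd248* without theirs. *Mstn* was at 197 and 83.0, against 39.2 and 31.6, but at 66.03 and 27.9 without the 2 members of each library that held most of its UMIs, which is below 2-fold in E10-P56 and below the *Col22a1* tenocytes in the adult pulse. The proteoglycan lumican (*Lum*) was at 936 and 1004, against 351 and 288, and 919 and 466 without the fibroblast-led sub-cluster, which is below 2-fold in the adult pulse. In sub-clusters 1 to 3 *Lum* was at 516 and 189.6, below 2-fold in E10-P56 and below the *Col22a1* tenocytes in the adult pulse. *Wif1* was at 73.5 (57.4 to 92.8) and 352 (328 to 377), against 4.13 and 8.91, with too few UMIs in E10-P56 for the 2331 genes.

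Lower in members, after *Col22a1* itself, which the rule set to 0, were *Fam101b*, *Fbn2*, *Dusp6*, *Spry4*, *Scube2*, *Crispld1*, *Ptx4*, *Zfp185* and *Prph*. *Fam101b*, an actin regulator, was at 242 and 166 CPM, against 1102 and 884. *Dusp6* and *Spry4* are feedback inhibitors of the ERK pathway. *Dusp6* was at 41.4 (29.6 to 56.4) and 24.6 (18.6 to 31.9), against 188 and 194, and *Spry4* at 37.3 and 18.0, against 153 and 149.6. *Etv4*, a transcription factor with too few UMIs for the comparison, was at 8.29 and 11.4, against 61.9 and 107. Of the genes in the transcription factor list *Scx* and *Zfp185* were lower. *Scx* was at 4372 and 298 in members and at 8929 (8665 to 9199) and 953 (916 to 991) in *Col22a1* tenocytes. Fibronectin (*Fn1*) was at 1011 and 668, against 2394 and 2877, and *Col11a1* at 695 and 459, against 1416 and 1032. Of the 7 tenocyte markers 0 were higher and 2 lower (*Chodl*, *Scx*), and 0 were lower without the fibroblast-led sub-cluster. *Scx* without the fibroblast-led sub-cluster was at 4481 and 402 and *Col11a1* at 710.3 and 619, both below 2-fold in 1 of the libraries. *Tnmd* was at 1706 and 1805, against 2436 and 2885. In sub-clusters 1 to 3 *Tnmd* was at 2153 and 3077, so that it was not lower there in the adult pulse, *Scx* was at 5498 and 487, below 2-fold, and *Fam101b* at 349 and 282, *Dusp6* at 44.4 and 31.3 and *Spry4* at 44.4 and 25.1, all still past it. The inhibitor *Timp1* was at 454 and 104 in members and at 679 and 1412 in *Col22a1* tenocytes, past 2-fold in the adult pulse. Of 12 comparable genes of the mechanical response, 11 proteases and inhibitors and 16 immediate early and heat shock genes 0 were past 2-fold in both libraries, of 12 TGF-beta, BMP and GDF genes 1 was higher (*Mstn*, not without 2 cells of each library), and of 13 FGF, IGF, Wnt and other signals 2 were higher (*Igfbp3*, *Igfbp5*) and 1 lower (*Dusp6*).

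Between the labelling times, most genes stood close together in members. Of 4361 genes with at least 100 UMIs over the members of both libraries, 117 (2.68%) were at least 2-fold higher in E10-P56 and 110 (2.52%) at least 2-fold higher in the adult pulse. The median log2 ratio of E10-P56 to the adult pulse was 0.15. With ratios centred on it, 65 were higher in E10-P56 members and 142 in adult pulse members. The counts of list genes below are not centred, and genes near 2-fold, such as *Dcn* and *Mmp14*, change sides once centred. Of the 117 genes, 25 were past 2-fold the same way in the other kept cells and 42 in *Col22a1* tenocytes. Of the 110, 45 and 57 were. Without the fibroblast-led sub-cluster 113 and 73 genes passed, of which 76 and 64 passed with it.

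Summed over all members, several structural genes of tendon stood close. *Tnmd* was at 1706 CPM in E10-P56 members and 1805 in adult pulse members, *Col1a1* at 16755 and 15305 and *Comp* at 1039 and 901. Within sub-clusters 1, 2 and 3 *Tnmd* was at 1712 and 2788, 2319 and 1511, and 2285 and 3648. *Comp* was at 1452 and 809, 312 and 389, and 3641 and 2229 there. *Col1a1* was at 13454 and 13550, 15749 and 15728, and 38421 and 34442. Over all members *Thbs4*, whose level the rule set in part, was at 10001 (9803 to 10203) and 10002 (9872 to 10132). None of 19 collagens and none of 12 small leucine-rich proteins was past 2-fold in either direction, whereas *Dcn* was at 9833 and 18001, below 2-fold, and at about the same pair of levels in the other kept cells. Without the fibroblast-led sub-cluster *Col3a1* was at 7451 and 3318, a log2 ratio of 1.17 in place of 0.40, and *Col4a1*, *Col4a2* and *Col15a1* were past 2-fold too, all higher in E10-P56, as was *Aspn*, while *Omd* was higher in the adult pulse. *Col3a1* was at 3380.5 and 2078 within sub-cluster 1, 3012 and 1869 within the second and 2689 and 1563 within the third, all below 2-fold, and at 15440 and 6190.3 within the fourth. Of its 7223 UMIs in E10-P56 members 2154 were in 2 cells, and without those it was at 5664. Of the 160 *Col15a1* UMIs in E10-P56 members 76 were in 2 cells. Over all members without the 2 of each library with most of its UMIs, *Col15a1* was at 94.0 and 200.8, past 2-fold the other way. In sub-clusters 1 to 3 together *Col4a1*, *Col4a2*, *Aspn* and *Lum* were at least 2-fold higher in E10-P56. *Dcn*, at 7549 and 17198, and *Omd* were at least 2-fold higher in the adult pulse there. Of 25 glycoproteins 2 were higher in E10-P56 (*Thbs1*, *Postn*) and 1 in the adult pulse (*Eln*). Periostin (*Postn*) was at 1376 (1303 to 1452) and 332 (309 to 357), with 651 and 168 in the other kept cells, and was at 1392 and 175 without the fibroblast-led sub-cluster. *Eln*, which encodes elastin, was at 145 and 803, and at 148 and 301 without that sub-cluster. *Chodl*, used by the rule, was at 1157 and 456, and at 1176 and 613 without that sub-cluster, which is below 2-fold. Within sub-cluster 1 *Chodl* was at 630 and 1151, lower in E10-P56, and within sub-cluster 2 at 2543 and 2320. It was at 155 and 117 within sub-cluster 3 and at 216 and 283 within sub-cluster 4. Of 25 genes of collagen processing 0 and 1 (*Pcolce2*) passed, of 22 TGF-beta, BMP and GDF genes 1 (*Mstn*, below 2-fold at 202 and 112 without that sub-cluster) and 1 (*Inhba*), and of 19 FGF, IGF, Wnt and other signals 1 (*Cxcl14*) and 3 (*Sfrp2*, *Wif1*, *Pthlh*), with the count for E10-P56 first and that for the adult pulse second. Of 14 genes of the mechanical response 1 (*Piezo1*) and 0 passed, of 14 proteases and inhibitors 3 (*Mmp3*, *Mmp14*, *Timp1*) and 1 (*Adamtsl2*), of 10 sheath and progenitor genes 1 (*Pdpn*) and 0, and of 6 *Hox* and limb identity genes 0 and 0. *Plod3* and *Pdgfra* also passed, higher in E10-P56, when the fibroblast-led sub-cluster was left out, and *Adamtsl2* no longer did. In E10-P56 members 2 cells held 71 of the 192 *Pdgfra* UMIs. Of the 174 UMIs of *Mmp3* in E10-P56 members 140.0 were in 2 cells. *Cxcl14* was at 774 and 367, and at 465 and 327 without the 2 members of each library with most of its UMIs, which is below 2-fold. *Pdpn* was at 194 and 93.1, and at 119.8 and 88.5 without those with most of its own, also below it, so the call of each rested on 2 cells.

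*Scx* was 14.7-fold (13.5 to 15.9) higher in E10-P56 members, a log2 ratio of 3.85. It was the only one past 2-fold of 15 comparable genes in the transcription factor list. Per cell, its median was 1680 CPM in E10-P56, with 18 of 159 cells at 0 and a highest value of 38958, and 110 in the adult pulse, with 158 of 325 at 0 and a highest value of 2874. The libraries overlapped in the lower part of this range. In *Col22a1* tenocytes it was at 8929 and 953 and in other kept cells at 27.4 and 7.30, so it was higher in E10-P56 in all 3 populations. It was also higher in E10-P56 within each of sub-clusters 1 to 4, at 4579 and 429 CPM in the first, 4393 and 638 in the second, 12029.6 and 537 in the third and 2627 and 236 in the fourth. The log2 ratio in members was 3.46 without the fibroblast-led sub-cluster.

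A second feature differed along with it. SSM2GFP, 1 of the 3 sequences that the authors added to the mouse genome along with tdTomato and CreERT2, was at 122 CPM (101 to 146) in E10-P56 members and 11.4 (7.46 to 16.7) in adult pulse members. In the other kept cells it was at 3.62 (3.16 to 4.13) and 15.004 (14.1 to 15.99). The study also used mice with a green fluorescent reporter of *Scx*, but the labels of these libraries name no such allele. In E10-P56, 38 of the 159 members (23.9%, 17.5 to 31.3) had an SSM2GFP UMI, and *Scx* was at 12139 CPM (11710 to 12580) in these and at 1679 (1586 to 1777) in the 121 without. *Tnmd* was at 2145 and 1554 in the same cells, and *Bop1*, which overlaps *Scx*, at 101 and 26.5. In E10-P56 *Col22a1* tenocytes *Scx* was at 18028 with and 3121 without an SSM2GFP UMI. In other kept cells it was at 278 with and 17.3 without in E10-P56, and at 2.09 and 8.07 in the adult pulse. In the adult pulse, 24 members had an SSM2GFP UMI, with *Scx* at 91.5 (56.7 to 139.9) in these and 321 (297 to 347) in the 301 without. Sub-cluster 5 held 11 of the 26 SSM2GFP UMIs of adult pulse members and 0 of their *Scx* UMIs. In adult pulse *Col22a1* tenocytes the order was the opposite, with *Scx* at 1203 (1062 to 1357) with and 931 (893 to 970) without an SSM2GFP UMI. With all cells that had an SSM2GFP UMI left out, the log2 ratio of *Scx* between the labelling times was 2.37. The members without such a UMI had a median of 3678 UMIs in E10-P56 and those with it 6181, so a 0 is partly a matter of depth, and the part of SSM2GFP in the *Scx* difference was not tested beyond these values. Whether some *Scx* UMIs came from the transcript of a reporter, which would change what the 14.7-fold ratio measures, was not tested.

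**Figure D5:**
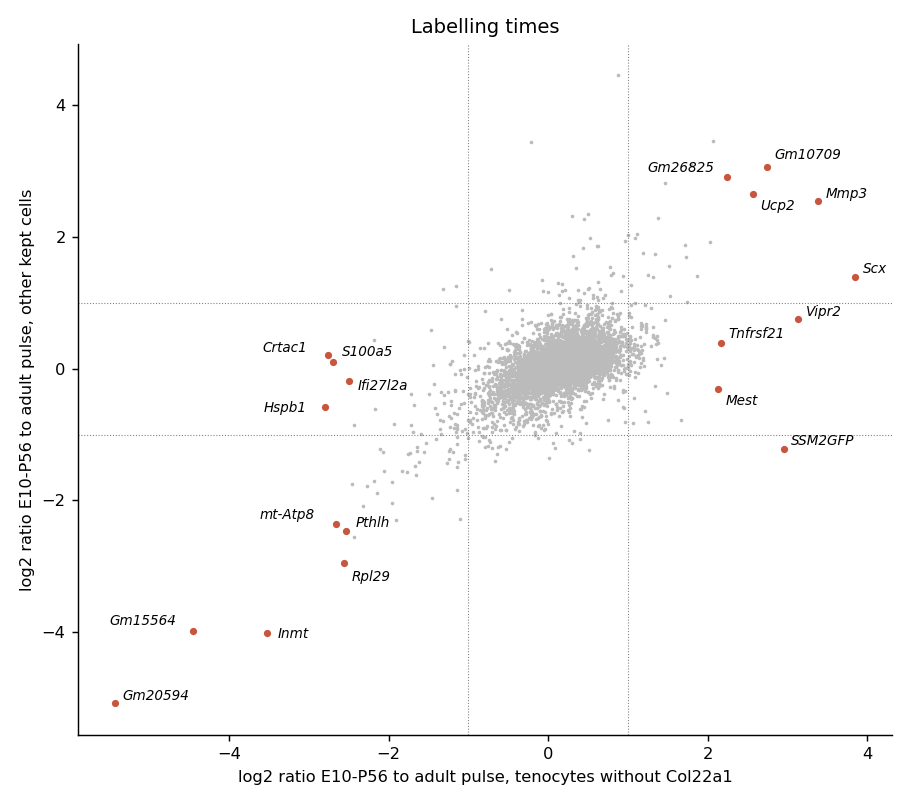
Log2 ratio of E10-P56 to the adult pulse in members (x axis) and in other kept cells (y axis), with 5 CPM added, 1 point for each gene drawn. Red points are the named genes with the largest ratio in each direction in members, dotted lines mark 2-fold, and *Scx*, *Vipr2*, *Tnfrsf21*, *Mest*, *Hspb1*, *Crtac1*, *S100a5* and *Ifi27l2a* lie nearer 0 on the y axis than on the x axis.

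Among the 10 genes most above the adult pulse in E10-P56 members were *Scx*, *Mmp3*, *Vipr2*, SSM2GFP, *Gm10709*, *Ucp2*, *Gm26825*, *Tnfrsf21* and *Mest*. *Gm10709*, *Ucp2*, *Gm26825* and *Mmp3* differed the same way in the other kept cells, *Ucp2* for example at 90.1 and 10.98 CPM in members and 103 and 12.2 in other kept cells. *Vipr2*, a receptor of vasoactive intestinal peptide, was at 355 (319 to 395) and 36.0 (28.6 to 44.7) in members, 272 and 10.4 in *Col22a1* tenocytes, and 8.30 and 2.90 in other kept cells. It was higher in E10-P56 within sub-clusters 1, 3 and 4 too, at 210.1 and 56.7, 464 and 63.6, and 95.9 and 24.5 CPM. *Tnfrsf21* (death receptor 6) was at 94.3 and 17.1 in members and 21.4 and 15.1 in other kept cells. Within sub-cluster 2, which held 50.9% of E10-P56 members and 4.31% of adult pulse members, it was at 237 and 125 CPM. In sub-cluster 1 it was at 0 and 41.2, with 0 and 24 UMIs, in sub-cluster 3 at 11.9 and 8.48 and in sub-cluster 4 at 11.98 and 5.25. It was thus lower in E10-P56 within sub-cluster 1. The imprinted gene *Mest* was at 142 (119 to 168) and 28.6 (22.03 to 36.4) in members, whereas *Col22a1* tenocytes had 272 and 253 and other kept cells 18.7 and 24.2.

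The 10 genes most above E10-P56 in adult pulse members were *Gm20594*, *Gm15564*, *Inmt*, *Hspb1*, *Crtac1*, *S100a5*, *mt-Atp8*, *Rpl29*, *Pthlh* and *Ifi27l2a*. *Gm20594* and *Gm15564* had 0 UMIs in E10-P56 members and 210 and 105 CPM in adult pulse members, and 169 and 84.7 in the other kept cells of the adult pulse, against 0.131 and 0.688 in those of E10-P56. *Inmt*, *mt-Atp8*, *Rpl29* and *Pthlh* also differed the same way in the other kept cells. *Crtac1*, a secreted protein of cartilage, was at 2.07 (0.251 to 7.48) and 43.0 (34.9 to 52.5) in members, and sub-cluster 3 held 72 of its adult pulse UMIs. The calcium-binding *S100a5* was at 8.29 (3.58 to 16.3) and 80.8 (69.6 to 93.4), with 76 of its 184 adult pulse UMIs in 2 cells. Both were under 1 CPM in the other kept cells of either library. *Wif1* was at 73.5 and 352 CPM in members, and at 3.93 and 1.58 in other kept cells. In E10-P56 members 38 of its 71 UMIs were in 2 cells, without which it was at 34.8 CPM. Within sub-cluster 3, which held 12.6% of E10-P56 members and 22.5% of adult pulse members, it was at 607 and 1321 CPM. *Ifi27l2a* was at 26.9 and 176 in members and at 21.4 and 41.1 in sub-clusters 1 to 3, below 2-fold.

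Immediate early and heat shock genes are known to be switched on in cells by digestion and heat. Of 20 comparable ones, 9 were at least 2-fold higher in adult pulse members and 0 in E10-P56 members (*Fos*, *Junb*, *Atf3*, *Ier2*, *Dusp1*, *Btg2*, *Hspa1a*, *Dnajb1*, *Hspb1*), with a median log2 ratio of E10-P56 to the adult pulse of -0.85 beside 0.15 over all 4361 genes. *Ier2* was below 2-fold without the fibroblast-led sub-cluster, and both *Ier2* and *Dusp1* were below it in sub-clusters 1 to 3. *Fosb* went the other way, at 332 and 178 in members, below 2-fold, and at 362 and 155 in sub-clusters 1 to 3. *Fos* was at 971 (909 to 1035) and 2259 (2198 to 2322) in members and at 921 and 1556 in other kept cells. *Hspa1a* was at 957 and 2237, and 1185 and 1746 in other kept cells. The heat shock gene *Hspb1* was at 68.4 (52.9 to 87.0) and 505 (476 to 535) in members, 61.9 and 453 in *Col22a1* tenocytes, and 339 and 509 in other kept cells. The part of handling in the differences between the labelling times was not tested.

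Markers of other cells also differed between the libraries. Of 3 comparable smooth muscle markers *Acta2* and *Tagln* were higher in E10-P56 members, *Acta2* at 153 and 40.8 CPM, with 866 and 97.1 in the other kept cells. Of 10 fibroblast markers *Pi16* and *Smoc2* were higher in adult pulse members, *Smoc2* at 175 and 691, and 154 and 182 without the fibroblast-led sub-cluster, where *Pdgfra* and *Col15a1* were higher in E10-P56. In E10-P56 members 2 cells held 71 of the 192 *Pdgfra* UMIs, and 2 cells 76 of the 160 *Col15a1* UMIs. Over all members without the 2 of each library with most UMIs of the gene, *Pdgfra* was at 134.5 and 225.6. *Col15a1* was at 94.0 and 200.8, so both were then lower in E10-P56. *Pi16* was at 192 and 492 in members, and at 149.7 and 28.6 in sub-clusters 1 to 3, the opposite direction. *Acta2* was at 143 and 73.4 in sub-clusters 1 to 3, below 2-fold. Their part in the ratios was not tested. tdTomato was at 1803 (1720 to 1890) and 2122 (2063 to 2183) in members, and 7 E10-P56 members and 1 adult pulse member had no tdTomato UMI. The *CreERT2* sequence was at 1.04 and 1.76 CPM. *Hic1*, whose locus drove the Cre, was at 38.3 (27.0 to 52.8) and 21.5 (15.9 to 28.5) in members, against 46.9 and 45.5 in other kept cells.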

How the data were processed

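Counts were those deposited by the authors, whole UMI counts of each gene in each barcode, not normalized, made with Cell Ranger 5.0.0 (E10-P56) and 3.0.2 (adult pulse) per the file headers on an mm10 genome with tdTomato, CreERT2 and SSM2GFP added. The totals were 67460919 UMIs over 8236 barcodes (E10-P56) and 69153173 over 9195 (adult pulse). Both list 28001 features, and 27645 were matched to GENCODE M21.

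The rule for members, the 24 gene lists (369 entries, 4 of them not matched by symbol) and the comparisons were chosen with earlier results of these data known. Levels are UMIs summed over cells, as CPM, with an exact 95% Poisson interval, and the interval of a share is Clopper-Pearson. Ratios add 5 CPM, and a gene was counted past 2-fold. Genes named outside the lists are the 15 highest and 10 lowest against other kept cells (at least 100 UMIs in the members of each library), and the 10 in each direction between labelling times and against *Col22a1* tenocytes, beside the leading genes of sub-clusters. Members were sub-clustered on 1500 variable genes, 15 principal components and 15 neighbours with leidenalg 0.10.2 at resolution 0.6 (scanpy 1.11.5, Python 3.11.15). No doublets were removed. Scrublet called only 14 doublets (0.230%) in E10-P56 and 3 (0.0350%) for the adult pulse, so the 5% with the highest scores were left out as an alternative. Other alternatives varied the limits on cells, the 4-gene level, the thinning, the weighting of cells, the denominator of CPM and the minimum UMIs per gene. Those named so in the closing section were chosen later than the rest. The steps were tested on simulated counts. 1 gene of this rule is not reported here.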

Additional observations from a re-analysis of the deposited data

Results flagged for a closer look

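Barcodes that the limits on UMIs and mitochondrial share had left out also reached the 4-gene level: 132 of 2149 in E10-P56 (6.14%) and 49 of 628 in the adult pulse (7.80%). Of these, 101 and 32 had fewer than 1500 UMIs, and 31 and 17 had over 10% mitochondrial UMIs.

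A few genes stood past 2-fold in opposite directions, and none of these differences was tested. *Wisp2*, singled out after its values were seen, had a log2 ratio of members to other kept cells of -1.06 in E10-P56 (45.6 and 100.2 CPM) and 1.17 in the adult pulse (77.7 and 31.7 CPM). Between the labelling times, *Inhba*, which encodes an activin subunit, had a log2 ratio of E10-P56 to the adult pulse of -1.15 in members and 1.26 in other kept cells. *1810011O10Rik*, also singled out after its values were seen, had -1.32 and 1.21, and SSM2GFP 2.95 and -1.21.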

How the results depend on the processing

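Of 1655 values for single genes under the alternatives run, 904 moved by less than their counting interval, 746 by more, and 5 that had been past 2-fold reversed, each a log2 ratio to *Col22a1* tenocytes. *Pi16* between labelling times, a gene of a list and not among the 1655, turned from -1.34 to 2.202 without sub-clusters 4 and 5, and further list genes turned there too. Without the 2 members with most of its UMIs *Mstn* was -0.15 in the adult pulse (1.27 with them). Without sub-clusters 4 and 5 *Ccl7* was -0.30, *Smoc2* -0.62 and *Dpt* -0.12 in the adult pulse, and *Eln* -0.0044 in E10-P56. Without sub-clusters 4 and 5 the shares of members were 2.09% (E10-P56) and 2.30% (197 cells, adult pulse), *Tnmd* was at 6.17 and 6.50 against other kept cells, *Scx* at 3.48 between labelling times, 63 genes were higher in the adult pulse, and 18 were higher and 13 lower against *Col22a1* tenocytes. Shares of kept cells that were members moved with the limits. For E10-P56 they were 2.16% with at least 3000 UMIs, 2.09% at a 4-gene level of 10000, 3.75% at 2500, 3.07% with *Col22a1* at 0 after thinning and 1.99% without SSM2GFP cells. For the adult pulse they were 3.34% at 5% mitochondrial UMIs, 2.65% at 10000, 5.54% at 2500, 4.96% after thinning and 2.96% without the fibroblast-led sub-cluster. The log2 ratio of *Tnmd* to other kept cells in E10-P56 (5.83) was 5.98 at 10000, 5.33 at 2500, 5.97 after thinning of *Col22a1*, 6.00 without high doublet scores, 6.01 with cells weighted equally, 5.70 without SSM2GFP cells and 5.13 with *Col22a1* tenocytes among the other cells. In the adult pulse (5.73) it was 5.84 at 5% mitochondrial UMIs, 5.08 at 10000, 5.13 without *Fmod* in the level, 5.91 after thinning, 5.84 without high doublet scores, 6.02 with equal weights, 6.16 without the fibroblast-led sub-cluster, 5.84 without SSM2GFP cells, 3.58 with *Col22a1* tenocytes among the other cells and 5.83 centred. The log2 ratio of *Scx* between labelling times (3.85) was 4.0 without *Fmod*, 3.30 after thinning, 4.06 without high doublet scores, 3.46 without the fibroblast-led sub-cluster, 2.37 without SSM2GFP cells and 3.71 centred. Genes higher in E10-P56 (117) were 203 with equal weights, 300 at 30 UMIs, 33 at 300 UMIs and 65 centred. Genes higher in the adult pulse (110) were 69 at 10000, 203 at 30 UMIs, 54 at 300 UMIs and 73 without the fibroblast-led sub-cluster. Against *Col22a1* tenocytes, 65 higher became 39 at 10000 and 121 at 2500, and 35 lower became 21 at 10000, 60 at 2500, 19 after thinning and 22 with equal weights. The share of members with a *Scx* UMI was 88.7% and 51.4% without thinning in E10-P56 and the adult pulse, and 39.8% in the adult pulse at 3000 UMIs. For *Tnmd* it was 88.7% and 74.8% without thinning and 87.4% and 71.7% at 3000 UMIs. At resolution 0.3 there were 3 sub-clusters, and the fibroblast-led one had 125 cells, 74 of them shared with the 74 above. At resolution 1 there were 8, and it had 73, with 73 shared. The alternatives without the fibroblast-led sub-cluster, without sub-clusters 4 and 5, without the 2 members with most UMIs of a gene, without SSM2GFP cells, with *Col22a1* tenocytes among the other cells, with centred ratios and with other resolutions were chosen after seeing the data. The cause of these shifts was not tested.

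No paired analysis was possible because each labelling time has 1 library, which leaves no spread between animals. At a median of 4496 and 6021 UMIs, genes of low CPM rest on few UMIs, and single members cannot be sorted by *Col22a1* with certainty.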
